A study of Homo sapiens with 9 samples.

Results

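The 10 genes described here, *HMOX1*, *HMOX2*, *SLC48A1*, *BLVRA*, *BLVRB*, *FTH1*, *FTL*, *TFRC*, *SLC40A1* and *FECH*, bring heme and iron into the cell, break heme down, store or export its iron, and put iron back into heme. They were chosen by symbol from 59452 gene rows, and all 10 were among the 15528 genes with enough counts to be tested. The set was drawn up with the response of *HMOX1* and *SLC48A1* to AT-0174 already known, so the AT-0174 values below are a description and not a test of the set. RNA was sequenced from MDA-MB-453, an established human breast cancer cell line that the labels call triple-negative and wild type in genotype, in 3 groups of 3 libraries. Attached cells were given vehicle (DMSO) on ordinary plates, while forced suspension cells, kept from attaching by poly-HEMA coating, were given either vehicle or 10 µM AT-0174, which blocks the tryptophan-degrading enzymes TDO2 and IDO1. Every group was collected after 48 h, all came from the same line, and no attached cells with AT-0174 were analysed here.

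Heme taken into the cytoplasm is opened by heme oxygenase, which releases iron, carbon monoxide and biliverdin, and biliverdin reductase then makes bilirubin. The freed iron is stored inside ferritin, a shell built of heavy (*FTH1*) and light (*FTL*) chains, or leaves the cell through ferroportin, while the transferrin receptor brings iron in and ferrochelatase inserts it into a new porphyrin ring. In many cells the transcription factor NRF2 switches on *HMOX1* and the ferritin genes, binding DNA together with small MAF proteins, and BACH1 represses *HMOX1* until heme binds it. Ferritin, ferroportin and the transferrin receptor are also set after transcription, by iron regulatory proteins that bind a short RNA hairpin, the iron-responsive element.

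The DNA element bound by NRF2 with a small MAF protein was searched for as TGACTCA followed directly by GCA, on both strands, within 10000 bases upstream of each gene's canonical transcript. Its first 7 letters are the AP-1 motif. Of 20007 protein-coding genes 3.86% held the element at least once in such a window, and 0.12% held it 2 or more times. It was found upstream of 5 of the 10 genes, in 2 copies for *HMOX1* and in 1 copy each for *FTH1*, *FTL*, *BLVRA* and *FECH*. The 50-base windows are shown because they let the genes that were higher with AT-0174 be set beside those that were not, with the element (or its reverse complement) in capitals and each sequence read 5′ to 3′ on the gene's own strand of GRCh38.
*HMOX1*, 3941 bases upstream, chr22:35377135-35377184, plus strand, within the long noncoding gene ENSG00000282041: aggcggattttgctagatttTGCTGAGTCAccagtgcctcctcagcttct
*HMOX1*, 9078 bases upstream, chr22:35371998-35372047, plus strand, intergenic: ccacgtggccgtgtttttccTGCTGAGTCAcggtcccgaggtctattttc
*FTH1*, 4418 bases upstream, chr11:61972023-61972072, minus strand, intergenic: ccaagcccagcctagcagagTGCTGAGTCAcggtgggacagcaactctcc
*FECH*, 288 bases upstream, chr18:57586961-57587010, minus strand, intergenic: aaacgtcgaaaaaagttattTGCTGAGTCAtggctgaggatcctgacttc
*FTL*, 1367 bases upstream, chr19:48963922-48963971, plus strand, intergenic: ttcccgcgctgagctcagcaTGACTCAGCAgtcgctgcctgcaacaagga
*BLVRA*, 1895 bases upstream, chr7:43756765-43756814, plus strand, intergenic: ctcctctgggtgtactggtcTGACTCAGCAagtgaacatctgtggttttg

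The same letters were not found in these windows of *HMOX2*, *SLC48A1*, *BLVRB*, *TFRC* and *SLC40A1*. Of the genes called higher with AT-0174 below, *HMOX1*, *FTH1* and *FECH* thus held the element, and *SLC48A1* and *BLVRB* did not. *FTL* and *BLVRA* held it and were not called higher. None of the copies lay within 250 bases of the start. With the 3 middle letters left free (TGAC, any 3 bases, GCA), 71.5% of all genes had at least 1 match in 10000 bases. Of all genes 14.6% had 3 or more matches and 1.19% had 5 or more. Among the 10 genes *FTH1* had 6 matches, *HMOX1* 5, *SLC48A1* and *FECH* 3 each, and the others 0 to 2. A match is a string of letters and no evidence of binding.

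The iron-responsive elements are shown because they separate the genes whose canonical transcripts carry the hairpin from those whose canonical transcripts do not. A loop of CAGTGN (capitals) between 5 paired bases, with G-T pairs allowed and an unpaired C before them, was found in the untranslated regions of 4 of the 10 genes. Such a hairpin was present in 0.0977% of 19441 5′ untranslated regions and in 0.624% of 19550 3′ untranslated regions. The *FTH1* and *FTL* hairpins were identical at 25 of 27 bases, and *TFRC* carried 4 copies, of which the first and last are printed.
*FTH1*, 5′ untranslated region, chr11:61967575-61967601, minus strand: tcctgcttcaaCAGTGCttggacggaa
*FTL*, 5′ untranslated region, chr19:48965336-48965362, plus strand: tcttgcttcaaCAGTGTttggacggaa
*SLC40A1*, 5′ untranslated region, chr2:189580662-189580688, minus strand: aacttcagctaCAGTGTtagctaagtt
*TFRC*, 3′ untranslated region, chr3:196050980-196051006, minus strand: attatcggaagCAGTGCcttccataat
*TFRC*, 3′ untranslated region, chr3:196050464-196050490, minus strand: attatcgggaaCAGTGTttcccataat

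The libraries held 36649997 to 48019126 estimated counts, and the 10 genes had at least 431 counts in every library. Luminal breast markers (*FOXA1*, *SPDEF*, *KRT8*, *KRT18* and *EPCAM*) were present with 11284 or more counts. The 5 erythroid markers had at most 3 counts (*ALAS2* had 0 in all 9 libraries), and the 5 macrophage markers at most 4. Of 5 fibroblast markers 4 had at most 8 counts, with *DCN* and *LUM* at 0, and *COL1A1* had 4337 to 5789. Transcripts of the mitochondrial genome took 7.56 to 9.32% of counts in attached cells, 4.05 to 4.34% in suspended cells with vehicle and 3.73 to 5.51% with AT-0174. This share moved with attachment alongside every suspension result below, and its part in them was not tested. Changes within a gene are given in CPM (counts divided by the library's total after TMM scaling), which can be compared between libraries, and levels between genes in TPM, which also divide by transcript length.

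Ferritin heavy chain stood far above the other genes. In attached cells *FTH1* had 9815 ± 169 TPM (SD, n = 3, as throughout), followed by *BLVRB* (287 ± 15.3), *FTL* (262 ± 9.73) and *TFRC* (230.5 ± 5.52). *SLC40A1* (115.5 ± 1.08 TPM) and *HMOX2* (114 ± 8.91) came next, then *SLC48A1* (70.3 ± 1.09), *FECH* (61.1 ± 3.57), *HMOX1* (48.2 ± 3.88) and *BLVRA* (18.1 ± 0.392). Neighbours whose libraries overlapped were *BLVRB* with *FTL* and *SLC40A1* with *HMOX2*, and the other neighbours were separated. In suspension with vehicle the order was the same apart from *HMOX2* and *SLC40A1*, which overlapped there too. With AT-0174, *HMOX1* (78.4 ± 7.30 TPM) passed *FECH* (67.2 ± 3.87) and its libraries overlapped those of *SLC48A1* (84.0 ± 2.60) and *FECH*.

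**Figure D1:**
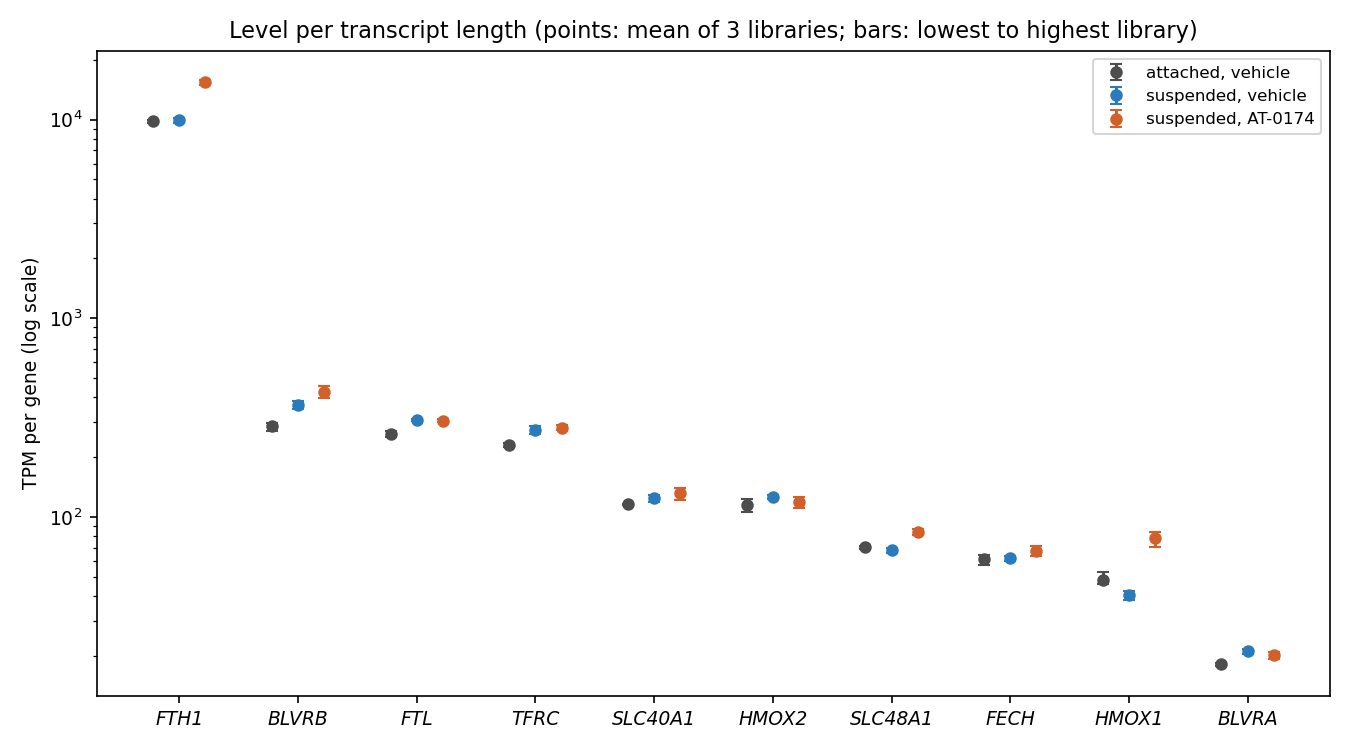
Level of each of the 10 genes in TPM (vertical axis, log scale) in the attached vehicle, suspended vehicle and suspended AT-0174 groups. Points are means of 3 libraries and bars run from the lowest to the highest library. The group means of *FTH1* are 9815, 9905 and 15488 TPM, the other genes lie between about 18.1 and 423, and *HMOX1* moves above *FECH* with AT-0174.

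Forced suspension was compared with attached culture, both with vehicle, to ask which of these genes move when the cells lose attachment. In CPM *HMOX1*, *SLC48A1* and *FTH1* were lower in suspension, whereas *BLVRB*, *FTL* and *TFRC* were higher. In TPM the libraries of *SLC48A1* and *FTH1* overlapped between these groups. Those of *HMOX2* and *SLC40A1*, which overlapped in CPM, lay wholly higher in suspension in TPM. By edgeR's quasi-likelihood test adjusted over all 15528 genes, 3 of the 10 genes rose and 3 fell, against 10.4% of all genes tested that rose and 10.8% that fell (21.2% in all). The groups did not overlap in CPM for 7 of the 10 genes (4 higher and 3 lower), against 38.1% of all genes (19.4% higher and 18.7% lower). The median log2 fold change was 0.05 for the 10 genes and 0.00 for all genes. The suspended vehicle libraries also serve in the AT-0174 comparison from which *HMOX1* and *SLC48A1* were known, so for these genes the comparisons are not independent. In bulk RNA, fewer cells expressing a gene and less RNA per cell cannot be told apart.

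In the second comparison, AT-0174 against vehicle in suspension, *HMOX1*, *FTH1*, *SLC48A1*, *BLVRB* and *FECH* were higher with the inhibitor. These 5 genes passed the threshold in the same fit, where 0.779% of all genes tested did (0.522% higher and 0.258% lower), a count that the choice of the set in part fixed. The count was 3 when suspended vehicle replicate 1 or 3, or AT-0174 replicate 1 or 2, was left out. All 3 AT-0174 libraries lay above all 3 vehicle libraries in CPM for 6 of the 10 genes, and for 7.75% of all genes. In TPM *TFRC* and *FECH*, among these 6, overlapped. No gene of the set lay wholly below, as 7.66% of all genes did (15.4% in either direction). The median log2 fold change was 0.15 for the 10 genes and 0.00 for all genes.

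**Figure D2:**
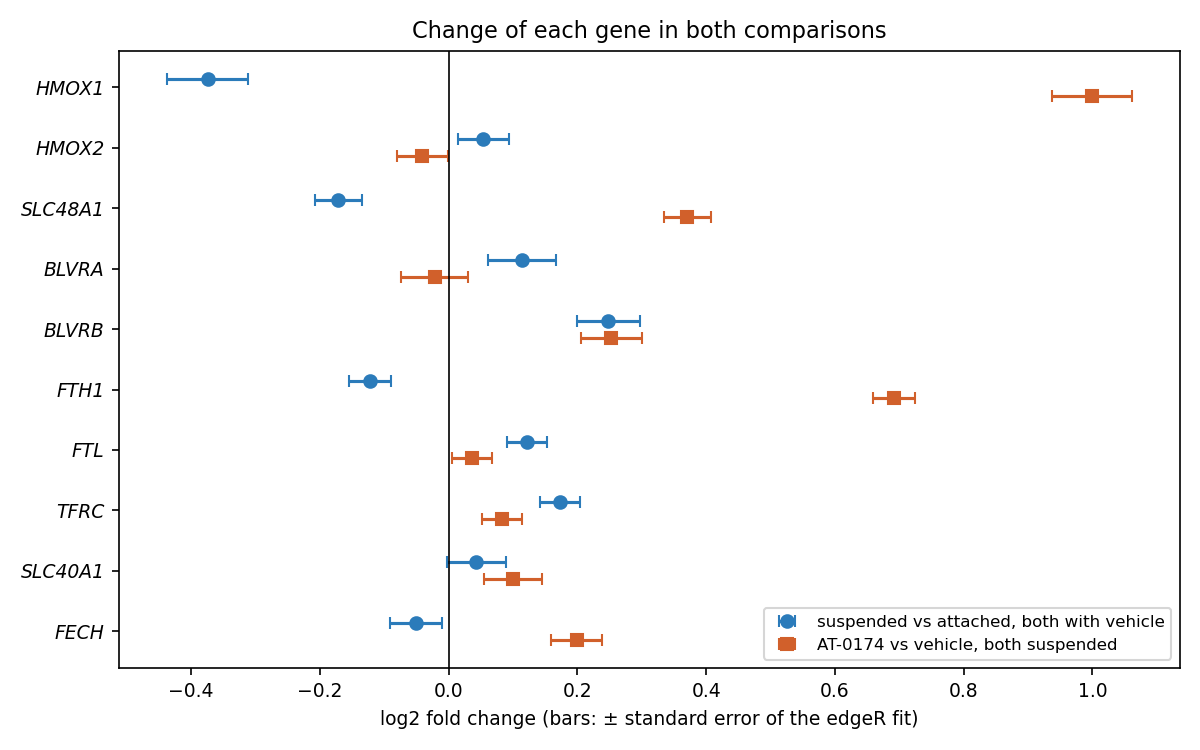
Log2 fold change of each gene (horizontal axis) with its standard error derived from the edgeR fit (bars), for suspended against attached cells (circles) and for AT-0174 against vehicle in suspended cells (squares). *HMOX1* runs from -0.37 in suspension to 1.00 with AT-0174, and *HMOX2*, *BLVRA* and *FTL* stay within 0.05 of 0 with AT-0174.

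*SLC48A1* (ENSG00000211584, chr12:47753916-47782751, plus strand) encodes HRG1, a membrane transporter that carries heme into the cytoplasm. It had 132.6, 130.4 and 133.6 CPM in attached cells, 122.5, 111.0 and 118.9 in suspension with vehicle, and 153.0, 149.5 and 153.0 with AT-0174. The groups did not overlap: the vehicle libraries in suspension were the lowest and the AT-0174 libraries the highest. *SLC48A1* fell in suspension (log2 fold change -0.17 ± 0.037 (SE), edgeR adjusted p = 0.0071) and was 1.29-fold higher with AT-0174 than with vehicle (0.37 ± 0.037). In TPM, which carry no such scaling between libraries, the attached (70.3 ± 1.09) and suspended (68.1 ± 2.33) vehicle libraries overlapped. *RAPGEF3* and *HDAC7* overlap it on the other strand and were also lower in suspension (-0.46 ± 0.071, edgeR adjusted p = 0.0012, and -0.54 ± 0.086, adjusted p = 0.0014), and whether counting used the strand is not given in the sources used here. Their part in its value was not tested. With AT-0174, *RAPGEF3* (0.03 ± 0.071) and *HDAC7* (0.14 ± 0.086) overlapped between the groups.

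*HMOX1* (ENSG00000100292, chr22:35380361-35394214, plus strand) encodes the inducible heme oxygenase, the enzyme that opens the heme ring. It had 52.4, 45.6 and 46.4 CPM in attached cells and 35.9, 37.0 and 38.5 in suspension with vehicle. With AT-0174 it had 76.2, 68.3 and 78.3 CPM. Suspended vehicle libraries were the lowest, AT-0174 libraries the highest, and each lay apart from the attached ones. *HMOX1* fell to 0.772 of its attached level in suspension (log2 fold change -0.37 ± 0.063, edgeR adjusted p = 0.002), and with AT-0174 it was 2.00-fold the suspended vehicle level (1.00 ± 0.062). The transcript ENST00000216117, the main coding form, carried 95.2 ± 1.12% of its TPM in attached cells, 95.2 ± 1.51% in suspension and 93.6 ± 1.45% with AT-0174.

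*HMOX2* (ENSG00000103415, chr16:4474690-4510347, plus strand), the constitutive heme oxygenase, varied little between libraries. It had 89.3, 95.0 and 87.3 CPM attached, 95.8, 94.2 and 91.9 in suspension, and 94.5, 88.1 and 91.4 with AT-0174, so all groups overlapped in CPM. In TPM the attached libraries (105.4 to 123.2) lay just below the suspended vehicle ones (123.5 to 128.2). The log2 fold changes were 0.05 ± 0.040 for suspension (edgeR adjusted p = 0.37) and -0.04 ± 0.040 for AT-0174. *NMRAL1*, which overlaps it on the other strand, was likewise near 0 in suspension (-0.00 ± 0.038, edgeR adjusted p = 0.98). The TPM of *HMOX2* was spread over 4 transcripts with at least 10% each, and its main one, ENST00000570646, held 40.7 to 42.6% in the 3 groups.

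The ratio of *HMOX1* to *HMOX2* in TPM is read within a library and needs no scaling between libraries. It was 0.461, 0.374 and 0.435 in attached cells, 0.308, 0.316 and 0.335 in suspension with vehicle, and 0.652, 0.631 and 0.693 with AT-0174. *HMOX2* thus had the higher TPM of the pair, summed over transcripts, in all 9 libraries. The main transcripts alone, ENST00000216117 of *HMOX1* and ENST00000570646 of *HMOX2*, had 45.9 ± 4.14 and 46.3 ± 0.842 TPM attached. They had 38.4 ± 1.55 and 53.7 ± 2.6 in suspension with vehicle, and 73.3 ± 5.87 and 50.3 ± 1.11 with AT-0174. The ratio of the summed TPM was lowest in suspension with vehicle and highest with AT-0174. The difference between suspended and attached vehicle libraries (-0.40 in mean log2 ratio) had p = 0.1 in a two-sided exact permutation test, and 0.1 is the smallest value that 3 against 3 allows.

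*BLVRA* (ENSG00000106605, chr7:43758680-43807342, plus strand) and *BLVRB* (ENSG00000090013, chr19:40447765-40465764, minus strand) encode the biliverdin reductases, and *BLVRB* also reduces flavins. *BLVRB* had 136.0, 134.7 and 127.5 CPM attached, 152.2, 164.5 and 156.1 in suspension, and 198.48, 190.99 and 174.04 with AT-0174. Each group lay wholly above the one before it. *BLVRB* rose in suspension (log2 fold change 0.25 ± 0.049, edgeR adjusted p = 0.0045) and was a further 1.19-fold higher with AT-0174 (0.25 ± 0.048). With AT-0174 it was no longer past the threshold without suspended vehicle replicate 1 or 3 or AT-0174 replicate 1 or 2. *BLVRA* had 12.1, 11.9 and 11.8 CPM attached and 12.8, 13.1 and 12.9 in suspension. The groups did not overlap, but the difference did not pass the test (0.11 ± 0.053, edgeR adjusted p = 0.15). With AT-0174 it had 12.9, 12.4 and 12.9 CPM, which overlapped the vehicle libraries (-0.02 ± 0.052). Its upstream window holds 1 copy of the element and that of *HMOX1* holds 2, and the element's part in these values was not tested.

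*FTH1* (ENSG00000167996, chr11:61959718-61967634, minus strand) encodes the ferritin heavy chain, which oxidizes iron for storage. It had 4116, 4253 and 4269 CPM attached, 3985, 3702 and 3931 in suspension, and 6248, 6167 and 6354 with AT-0174. The AT-0174 libraries lay far above the rest, and the suspended vehicle libraries just below the attached ones. With AT-0174 the level was 1.62-fold that with vehicle (log2 fold change 0.69 ± 0.033). *FTH1* fell in suspension (-0.12 ± 0.033, edgeR adjusted p = 0.021), but this call rests on single libraries: the adjusted p was 0.057 without attached replicate 2 or replicate 3 and 0.11 without suspended replicate 2. It also depends on the scale, since in TPM the suspended mean (9905 ± 273) was above the attached one (9815 ± 169) with overlapping libraries. The 25 *FTH1* pseudogene rows held 0.299 to 0.367% of the *FTH1* count, and 4 short overlapping transcripts shared most of its TPM, so values per transcript are uncertain. The canonical transcript ENST00000273550, in which the hairpin was read, was not among these 4, which each held at least 10% of the TPM. Whether these 4 carry the hairpin was not examined.

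*FTL* (ENSG00000087086, chr19:48965309-48966879, plus strand) encodes the light chain, which helps the shell take up iron mineral. It had 134.3, 138.1 and 131.9 CPM attached, 149.0, 144.2 and 146.8 in suspension, and 150.9, 152.7 and 147.5 with AT-0174. Attached libraries were lowest, and the suspended groups overlapped. *FTL* rose in suspension (log2 fold change 0.12 ± 0.031, edgeR adjusted p = 0.016; 0.058 without attached replicate 3) and differed little with AT-0174 (0.04 ± 0.031). Its pseudogenes (16 rows) held 0.902 to 1.58% of its count, and how reads shared with them were divided is uncertain, so its level beside *FTH1* should be read with care.

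The ferritin chains therefore differed in both comparisons, with *FTH1* to *FTL* ratios in TPM of 36.5, 37.1 and 39.0 attached, 32.4, 31.7 and 32.8 in suspension, and 50.7, 49.1 and 52.5 with AT-0174. None of the 3 groups overlapped. The mean log2 ratio differed by -0.22 between suspension and attached culture (exact permutation p = 0.1, two-sided, again the smallest possible) and was 0.65 higher with AT-0174 than with vehicle. The hairpins of these genes, printed above, differ at 2 of 27 bases, and each gene has 1 copy of the upstream element. The looser search gave 6 matches upstream of *FTH1* and 1 upstream of *FTL*. The part of these sequences in the ratios was not tested.

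**Figure D3:**
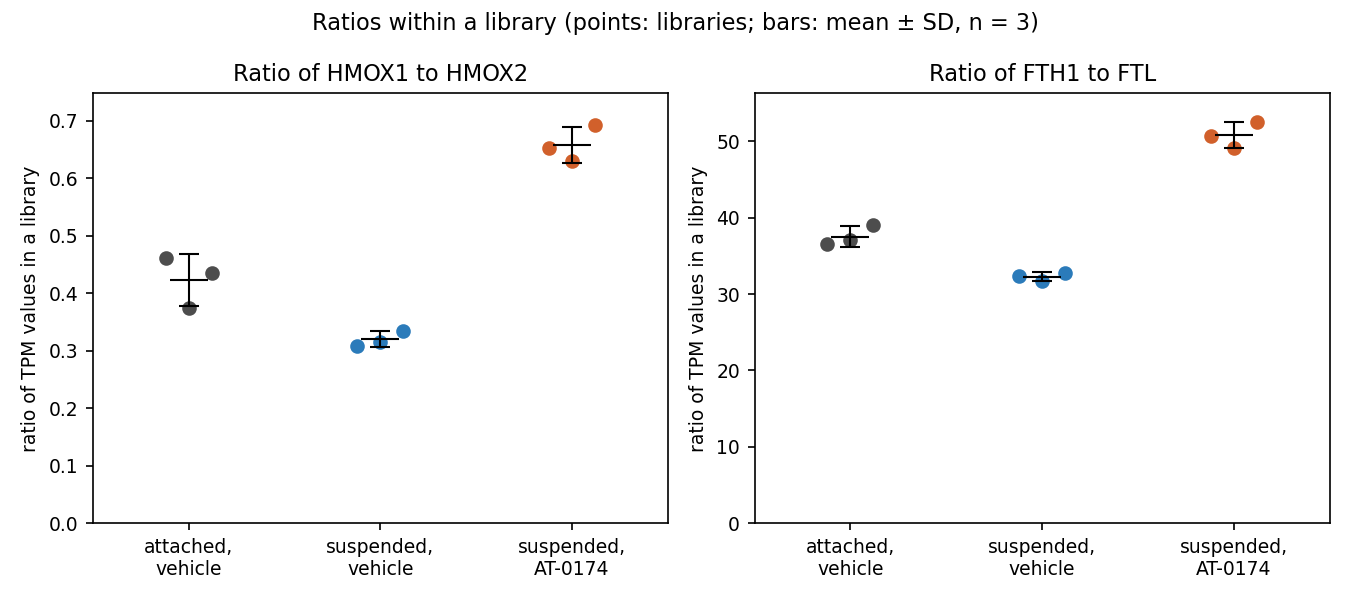
Ratio of *HMOX1* to *HMOX2* (left) and of *FTH1* to *FTL* (right) from TPM values of the same library (vertical axes, starting at 0). Points are libraries and bars are the mean ± SD of 3. In both panels the suspended vehicle libraries are lowest (0.308 to 0.335 and 31.7 to 32.8) and the AT-0174 libraries highest (0.631 to 0.693 and 49.1 to 52.5).

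*TFRC* (ENSG00000072274, chr3:196012511-196082153, minus strand) encodes the receptor that takes up iron-loaded transferrin. It had 515.9, 505.1 and 495.4 CPM attached, 556.8, 583.3 and 568.7 in suspension, and 604.6, 616.6 and 588.9 with AT-0174. The groups stepped upward without overlap in CPM, but in TPM the suspended vehicle (261.3 to 287.4) and AT-0174 (272.1 to 289.9) libraries overlapped. *TFRC* rose in suspension (log2 fold change 0.17 ± 0.031, edgeR adjusted p = 0.0029). The difference with AT-0174 was smaller (0.08 ± 0.031) and did not pass the threshold. Its full-length transcript ENST00000360110, which carries the 4 hairpins, held 55.3 to 57.5% of the TPM in the 3 groups, and a 524-base transcript, ENST00000421258, held 30.2 to 31.2%.

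*SLC40A1* (ENSG00000138449, chr2:189560590-189583758, minus strand) encodes ferroportin, the iron exporter. It had 203.6, 188.7 and 189.7 CPM attached, 201.1, 191.5 and 207.3 in suspension, and 217.3, 201.9 and 223.5 with AT-0174. All groups overlapped in CPM, with log2 fold changes of 0.04 ± 0.045 in suspension (edgeR adjusted p = 0.54) and 0.10 ± 0.045 with AT-0174. Of the 3 genes with a 5′ hairpin, *SLC40A1* was the gene whose libraries neither comparison separated in CPM. In TPM its attached libraries (114.3 to 116.2) lay wholly below the suspended vehicle ones (119.1 to 128.3), whereas those of *FTH1* overlapped.

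*FECH* (ENSG00000066926, chr18:57544377-57586732, minus strand) encodes ferrochelatase, the last enzyme of heme synthesis. It had 57.7, 55.7 and 56.9 CPM attached, 56.9, 52.3 and 55.3 in suspension, and 64.4, 63.2 and 61.2 with AT-0174. Vehicle groups overlapped (log2 fold change -0.05 ± 0.040, edgeR adjusted p = 0.42), while all 3 AT-0174 libraries were above both in CPM, by 1.15-fold against suspended vehicle (0.20 ± 0.040). In TPM the AT-0174 libraries (63.4 to 71.1) overlapped the suspended vehicle (60.0 to 63.6) and attached (57.4 to 64.5) ones. With AT-0174 *FECH* was no longer past the threshold when any 1 of the 6 suspended libraries was left out. A 564-base transcript annotated without a coding sequence, ENST00000585747, took 48.9 to 52.6% of its TPM, and the 2521-base ENST00000651787 took 28.7 to 31.3%, so the TPM of *FECH* gives a weak reading of its coding message.

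**Figure D4:**
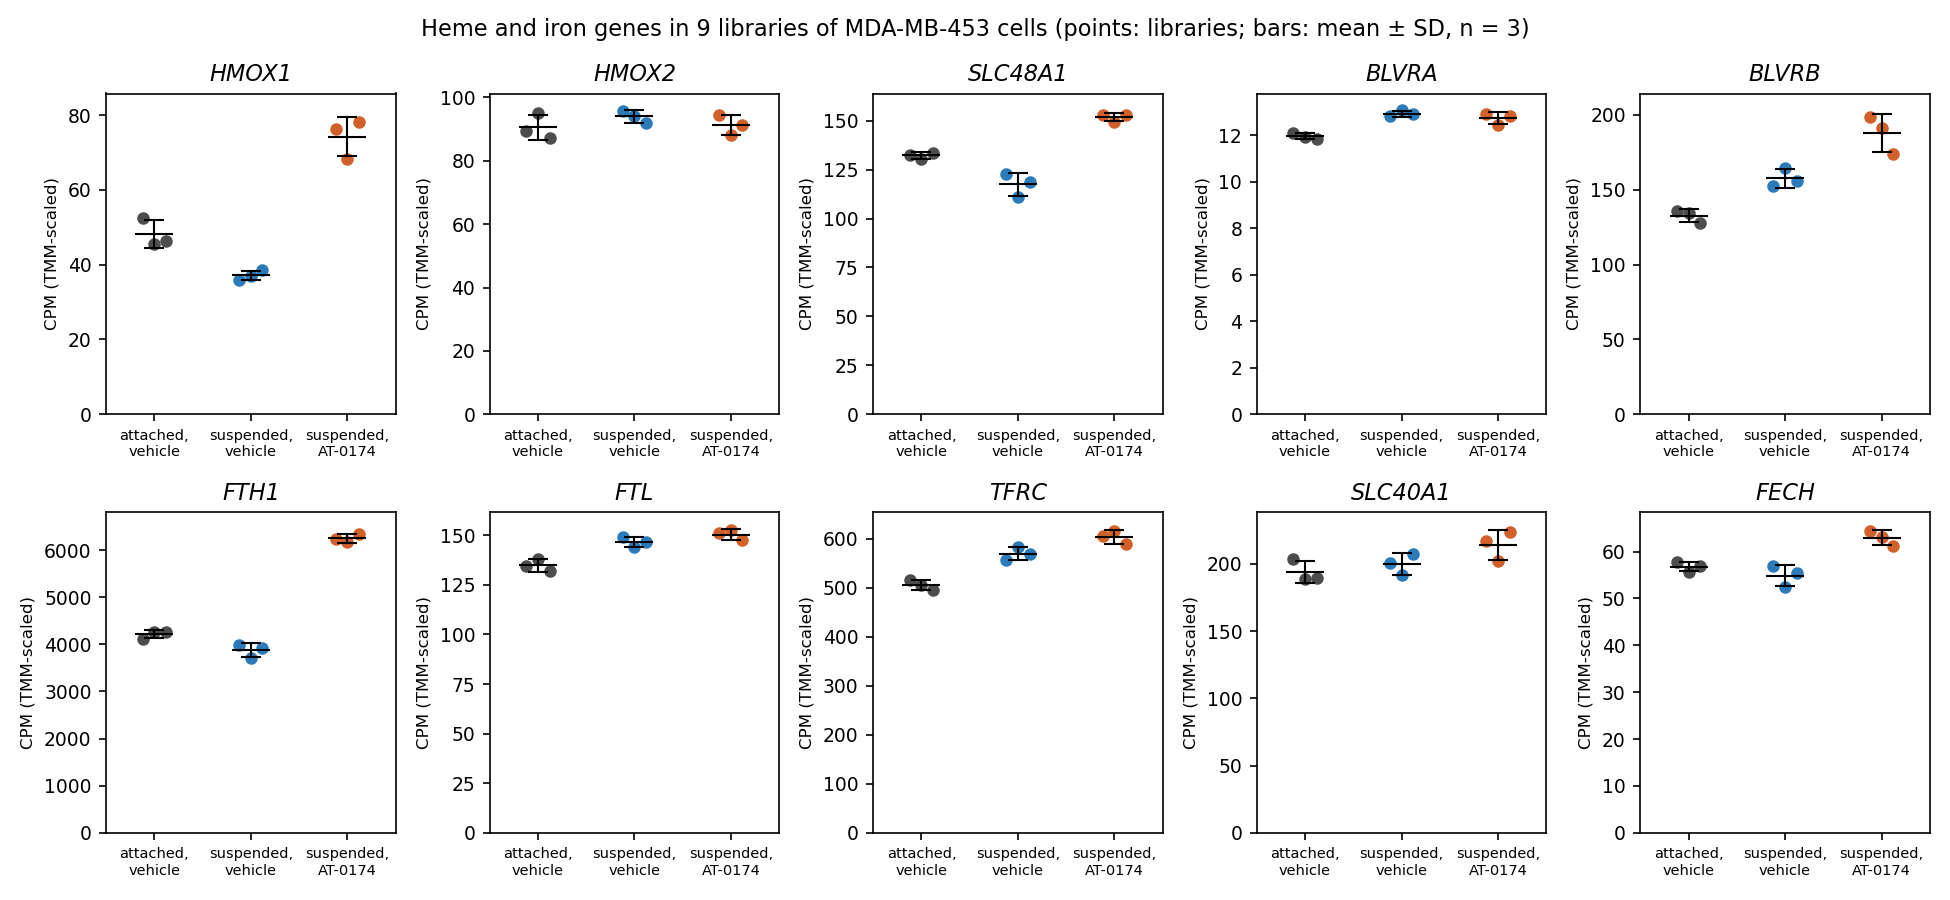
CPM of each gene (vertical axes, starting at 0) in the 9 libraries, by group. Points are libraries and bars the mean ± SD of 3. *HMOX1*, *SLC48A1*, *FTH1*, *BLVRB*, *TFRC* and *FECH* have all 3 AT-0174 libraries above the suspended vehicle libraries, and *HMOX2*, *BLVRA*, *FTL* and *SLC40A1* overlap.

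Set against attached vehicle cells in CPM, suspended cells with AT-0174 lay wholly above for 8 of the 10 genes, against 20.4% of all genes tested. They overlapped for *HMOX2* and *SLC40A1*. The count of 8 shares its AT-0174 libraries with the comparison behind the choice of the set, so it is a description. The lower CPM of *HMOX1*, *SLC48A1* and *FTH1* in suspension were thus not seen with AT-0174, where these genes exceeded their attached levels in every library. In TPM only *HMOX1* among them was separated as lower in suspension with vehicle, and the *FTH1* call rested on single libraries. Attachment and treatment both differ in that contrast, and the suspended vehicle libraries divide it into the suspension and AT-0174 steps given for each gene above. Whether attached cells respond alike to AT-0174 cannot be told, as no such group was analysed.

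Beyond the 10 genes, 58 other genes of heme and iron handling were listed by role, and 46 had enough counts to be tested. In suspension 4 rose and 2 fell, that is 6 of 46 against 21.2% of all genes, and with AT-0174 2 rose and none fell, against 0.779%. The 6 became 2 without attached replicate 3 or suspended vehicle replicate 2. Their median log2 fold changes were 0.02 and 0.00. The 12 untested genes had at most 17 counts in any library and were *ALAS2*, *ABCG2*, *CD163*, *TF*, *STEAP1*, *STEAP2*, *STEAP4*, *CP*, *HEPH*, *HAMP*, *LCN2* and *FTMT*.

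With AT-0174, *ALAS1*, the first and rate-setting enzyme of heme synthesis, had 53.0, 51.7 and 51.9 CPM against 44.6, 41.6 and 42.6 with vehicle. It rose by 0.28 ± 0.047 on the log2 scale (edgeR adjusted p = 0.012), alone among 7 tested synthesis genes outside the set, while *FECH* of the set also passed. The *ALAS1* call was lost without any 1 of 4 libraries, suspended vehicle replicates 2 and 3 and AT-0174 replicates 1 and 3 (adjusted p 0.061 to 0.073). *ABCB6*, a porphyrin transporter, had 101.5, 103.6 and 99.3 CPM against 83.5, 87.3 and 86.7 and rose by 0.24 ± 0.034 (adjusted p = 0.0037). It was alone among 10 tested heme transport genes outside the set, while *SLC48A1* of the set also passed. No library decided the *ABCB6* call.

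In suspension the heme synthesis enzyme *ALAD* fell (-0.19 ± 0.055, edgeR adjusted p = 0.03) and no other of the 7 passed. It had 26.2, 26.6 and 26.4 CPM attached and 24.4, 23.6 and 21.6 suspended, and the adjusted p was 0.061 to 0.13 when any of the attached libraries, or suspended replicate 2 or 3, was left out. Of 6 tested iron uptake and transfer genes, *CYBRD1*, a plasma membrane ferric reductase, fell (-0.29 ± 0.039, adjusted p = 0.00065), from 55.7, 53.1 and 52.1 CPM to 43.3, 44.6 and 44.2. *SLC39A14*, a zinc and iron importer, rose (0.18 ± 0.057, adjusted p = 0.043). *KEAP1*, which holds NRF2 for degradation, rose by 0.18 ± 0.032 (adjusted p = 0.0024), alone among 6 regulators, from 118.7, 124.4 and 119.5 to 137.7, 136.6 and 136.6 CPM. The iron sensing list gave *PCBP1*, an iron chaperone for ferritin, at 0.09 ± 0.029 (adjusted p = 0.042, 1 of 7). Leaving out single libraries raised the adjusted p to at most 0.16 for *SLC39A14* and to 0.12 for *PCBP1*, and either call was lost with any of the 6 left out.

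*CYBRD1* and *KEAP1* kept their calls without any 1 library, but *CYBRD1* depended on the scale: with counts rebuilt from TPM its log2 fold change was -0.18 ± 0.051 (edgeR adjusted p = 0.066), and in TPM its attached (38.7 ± 1.43) and suspended (36.7 ± 1.60) libraries overlapped. Other regulators did not pass: *NFE2L2*, which encodes NRF2, had log2 fold changes of 0.03 ± 0.038 in suspension (edgeR adjusted p = 0.68) and -0.01 ± 0.038 with AT-0174 (adjusted p = 0.96), and *BACH1* had 0.13 ± 0.067 (adjusted p = 0.2) and -0.00 ± 0.066 (adjusted p = 1). *IREB2*, which encodes an iron regulatory protein, had 0.10 ± 0.045 (adjusted p = 0.15) and -0.01 ± 0.045 (adjusted p = 0.97), and *POR*, the electron donor of heme oxygenase, did not pass in either comparison.

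**Figure D5:**
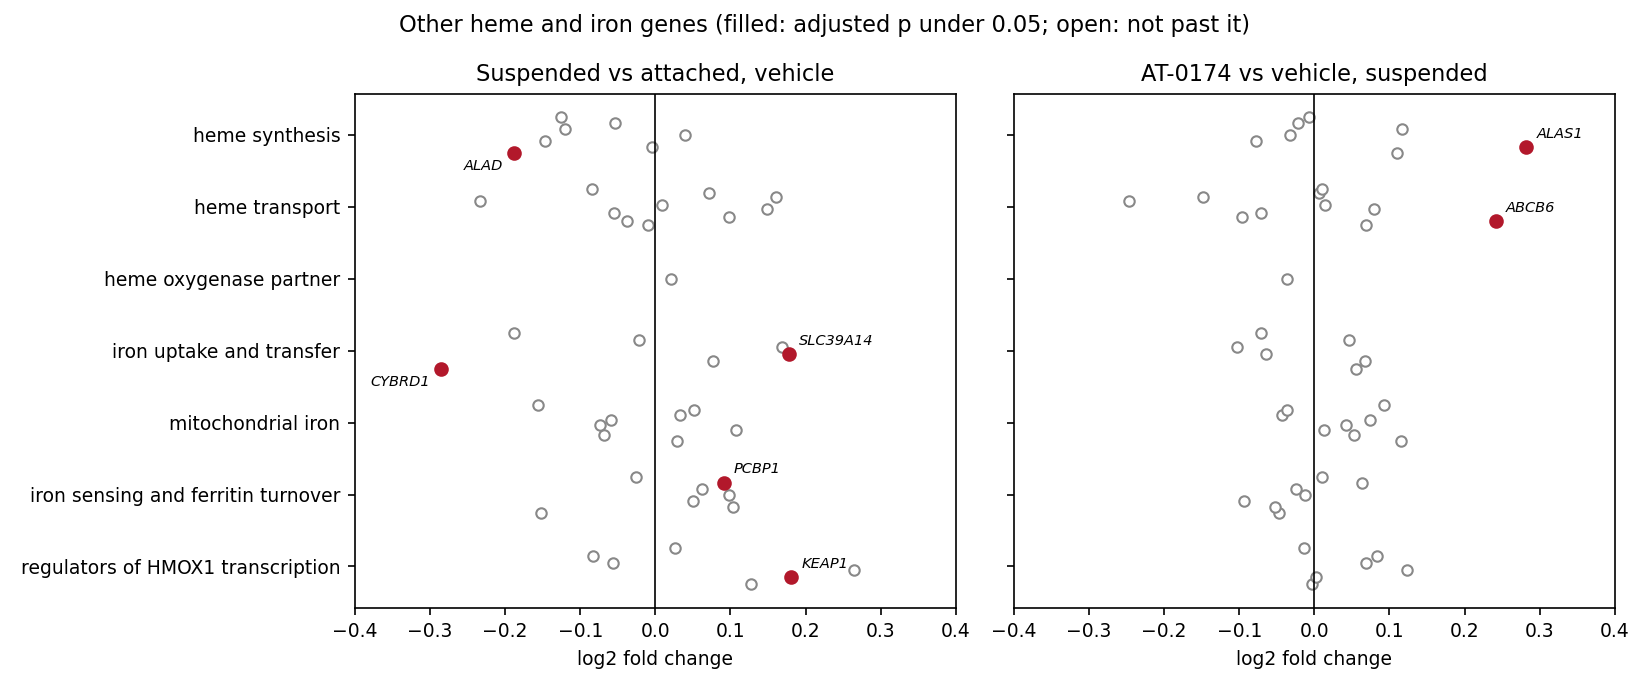
Log2 fold change (horizontal axes) of the other heme and iron genes tested, by role (rows, 1 of the 46 not shown), for suspended against attached cells (left) and AT-0174 against vehicle (right). Filled and named points passed an adjusted p of 0.05. Most genes lie within 0.2 of 0, with *CYBRD1* (-0.29) farthest out among the named points on the left and *ALAS1* (0.28) and *ABCB6* (0.24) on the right.

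Across the 9 libraries the genes outside the set whose log2 CPM followed *HMOX1* most closely, out of 9354 genes with a mean of at least 10 CPM, were *GCLM* (Pearson r = 0.969), *EPHX1* (0.958), *CASK* (0.955), *RNF114* (0.950) and *OSGIN1* (0.945). Within the set the closest were *SLC48A1* (0.957), *FTH1* (0.954) and *FECH* (0.899), followed by *SLC40A1* (0.675), *BLVRB* (0.589), *TFRC* (0.433) and *FTL* (0.306). *BLVRA* (0.012) and *HMOX2* (-0.31) did not follow it. The libraries form 3 groups, so these values mostly rank how like the steps between groups were, and they are given without a test. The steps differed in size: *GCLM*, a subunit of glutamate-cysteine ligase, went from 46.4 ± 0.767 to 64.6 ± 2.66 CPM with AT-0174 (0.48 ± 0.043 on the log2 scale), *OSGIN1*, an oxidative stress growth inhibitor, from 17.8 ± 1.06 to 27.8 ± 1.099 (0.64 ± 0.057), and *CASK* from 130.7 ± 1.84 to 140.1 ± 0.846 (0.10 ± 0.028).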

How the data were processed

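Poly-HEMA-suspended and attached MDA-MB-453 cells were sequenced as mRNA libraries. The submitters' processing notes name bcl2fastq 2.20.0.422, cutadapt 3.4, Trim Galore 0.6.7, STAR 2.7.9a, Salmon 1.10.1 and R 4.2.2 with genome GRCh38. The authors deposited a table of estimated counts per gene, which equalled the sum of each gene's transcripts, and TPM per transcript, which were summed per gene here. Whether counting used strand is not given in the sources used here. Estimated counts were rounded, filtered with filterByExpr, TMM-scaled and fitted with edgeR 4.0.16 (R 4.3.3) quasi-likelihood models over all 9 libraries, with Benjamini-Hochberg adjustment over 15528 genes and a threshold of 0.05. The code was tested on simulated data. DESeq2 1.42.0, limma-voom 3.58.1 (the study's package), other filters and scalings, a replicate block and leaving out each library were alternatives. The study's methods describe the libraries of each condition as biological triplicates. The edgeR p-values set each group difference against the spread between replicate libraries, estimated over all 9 libraries with information shared across genes. All libraries came from the same cell line, so this spread holds none between lines.

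The genes and lists were chosen with earlier results of these data known. All 10 genes of the set are named, as are up to 3 genes a list past the threshold by largest change, regulators singled out after their values were seen, and the 5 genes outside the set most correlated with *HMOX1*. Sequences, starts and untranslated regions came from GENCODE 44 canonical transcripts on GRCh38. Same-numbered libraries did not deviate together, and numbers were not taken as pairs. Proteins were not used here. A few genes of the lists are not reported here.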

Additional observations from a re-analysis of the deposited data

How the results depend on the processing

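Of the 10 genes, 6 passed in suspension with 4 to 6 doing so under the alternatives, and none of the log2 fold changes of the set turned its direction. In suspension *FTH1* (adjusted p = 0.18) and *TFRC* (0.068) no longer passed with counts rebuilt from TPM, and the losses with 1 library left out stand beside the results. Of the 5 genes past the threshold with AT-0174, 3 remained with counts rebuilt from TPM, 3 at an adjusted p of 0.01 and 3 to 4 with 1 library left out, and *HMOX1*, *SLC48A1* and *FTH1* passed under every alternative at 0.05, while *BLVRB* and *FECH* did not pass with rebuilt counts, nor *FECH* with the 6 suspended libraries fitted alone. The other heme and iron genes gave 6 calls in suspension, 2 with rebuilt counts, 2 at 0.01 and 2 to 5 with 1 library left out (2 without attached replicate 3 or suspended vehicle replicate 2). With AT-0174 they gave 2 calls, 0 with rebuilt counts, where the adjusted p of both was 0.12, 1 at 0.01 and 1 to 2 with 1 library left out. Rebuilding the counts from TPM lowered the calls over all genes from 3297 to 1396 in suspension and from 121 to 31 with AT-0174, and the cause was not tested. Other counts over all genes beyond 1.5 times were 1935 (without attached replicate 3) and 1951 (without suspended vehicle replicate 2) in suspension and, with AT-0174, 239 by DESeq2, 499 with no filter and 63 to 70 with any 1 library but suspended vehicle replicate 2 left out (86 without it, within 1.5 times). The replicate block, which the labels' numbers do not justify as a pairing (correlations of same-numbered libraries -0.022 to 0.044), left 6 and 5 of the 10 genes past the threshold and 3250 and 146 of all genes, with *PCBP1* lost (adjusted p = 0.061). Adding pseudogene rows to *FTH1* and *FTL* changed no call. At this depth the log2 fold changes of the 10 genes had standard errors of 0.031 to 0.063.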
